A study of Homo sapiens with 52 samples.

Results

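A set of 10 genes of YAP and TEAD transcription was followed through senescence in WI-38 cells, a strain of human embryonic lung fibroblasts. The genes were taken by symbol: CCN1, CCN2, ANKRD1, CRIM1, AMOTL2, LATS2 and AJUBA, which are known targets of YAP and TEAD, and YAP1, WWTR1 and TEAD1, which encode the regulators themselves. These are 10 of the 59408 genes in the tables, and all 10 were among the 15759 genes that averaged 10 or more reads per library and entered the tests. The mRNA sequencing covered 26 groups of 2 libraries each. Untreated cells were young cultures at a population doubling level (PDL) of 32 to 46, and replicatively senescent (RS) cells had been passaged until they stopped dividing at about PDL 52. Cells of the other 24 groups received 0.009% sodium dodecyl sulfate (SDS, a detergent that injures the plasma membrane), 75 mM KCl (which depolarises the membrane) or 250 nM doxorubicin (DXR, which damages DNA) for 24 h. They were taken at the end of treatment (day 0), daily to day 4, and on days 6, 8 and 16. All groups were wild-type cells of this single strain, and the study's methods call the libraries of a group independent samples without saying whether these were separate cultures, so the p-values measure the spread between such samples.

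YAP1 and its relative TAZ, the product of WWTR1, are coactivators that do not bind DNA themselves. They reach their targets through the TEAD family of DNA-binding proteins. The Hippo kinases LATS1 and LATS2 phosphorylate both coactivators, which are then held in the cytoplasm or degraded, so that much of their control leaves no trace in their own mRNA. In fibroblasts YAP and TAZ are known to respond to cell spreading, to the stiffness of the matrix and to tension in the actin cytoskeleton, and they are best known there for driving matrix and wound-response genes. Several targets, among them LATS2 and AMOTL2, feed back to restrain the coactivators.

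The stretches upstream of CCN2 and ANKRD1 are shown because these are the classical reporters of the pathway and the members that were highest in RS cells. Capitals mark the letters GGAATG, the core of the TEAD binding motif (searched on both strands, where it reads CATTCC on the other). Both genes lie on the minus strand, and the sequence runs 5′ to 3′ along the gene.
CCN2, chr6:131951374-131951622 (GRCh38.p14, minus strand): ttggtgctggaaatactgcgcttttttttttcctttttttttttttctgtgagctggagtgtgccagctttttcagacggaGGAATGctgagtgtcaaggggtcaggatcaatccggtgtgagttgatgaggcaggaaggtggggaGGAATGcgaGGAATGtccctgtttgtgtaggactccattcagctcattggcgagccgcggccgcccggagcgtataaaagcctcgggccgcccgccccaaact
ANKRD1, chr10:90921277-90921337 (GRCh38.p14, minus strand): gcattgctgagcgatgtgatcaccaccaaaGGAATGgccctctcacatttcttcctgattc
In CCN2 the 3 matches begin 169, 104 and 95 bases before the RefSeq start site. In ANKRD1 the match shown begins 220 bases before it, and another begins 128 bases before it, inside the first exon as GENCODE 29 draws it. RefSeq windows of 300 bases (250 before and 50 after a start site) were at hand for 7 of the members. A TEAD match occurred in 6 of their 10 windows, at CCN2, ANKRD1, AMOTL2, LATS2, AJUBA and YAP1, while 14% of all 35116 windows held one. The letters TGANTCA of the AP-1 motif occurred at ANKRD1 alone among the members, against 7.71% of all windows, and the CArG box of serum response factor occurred at none, against 1.29%. A match describes letters, not a bound site. CCN1, CRIM1 and TEAD1 had no entry.

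The tables hold a mean over 4 libraries, 2 untreated and 2 treated, and no value of a single library. Reads per library were recovered from the printed digits of these means. Expression is given as normalised reads, the recovered reads divided by the library's size factor, for both libraries of a group, a being the one with more reads in all. In 14 of the 260 pairs of member and group the digits allowed several splits, none with a posterior share of 0.99 or more. For these the group mean alone is given. Elsewhere a single split was possible or 1 reached that share, and its values are printed. The tests used the likeliest split, which favours 2 libraries that are alike, so the spread may be too small there. Libraries held 14.2 to 52.3 M reads, and the untreated ones were the smallest at 17.5 and 14.2 M. The pair of libraries shared by all 25 tables was taken as untreated. In it the proliferation marker MKI67 stood at 6041 and 4738 normalised reads, against 199 and 37.1 in RS. The 6 measured fibroblast markers (COL3A1, VIM, THY1, PDGFRB, DCN and LUM) were abundant throughout. Of the markers of other cell types, KRT5, CDH5, CD3E and MYH7 were at 0 in 38 to 47 of the 52 libraries, whereas EPCAM, VWF and DES had reads in all of them, at 16.5 and 18.1, 44.5 and 48.3, and 23.1 and 10.1 normalised reads in untreated cells. The RS libraries stood apart from each other more than those of any other group, with a median absolute log2 difference of 0.181 over 11122 genes against 0.0635 to 0.158 elsewhere. Log2 fold changes carry their standard error, and a gene was called where the Benjamini-Hochberg adjusted p of the limma fit, taken over all genes tested, was under 0.05. A call is said to have held where it also passed with any 1 of its 4 libraries left out. A looser filter, keeping every gene with a read in 2 libraries, ended some calls that held, and its adjusted p is given beside them. These are bulk libraries, in which fewer cells of a kind and less RNA per cell cannot be told apart.

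Per kilobase of exon, CCN2 was the most abundant member in untreated cells, at 9734 and 11460 normalised reads. CCN1 followed at 6940 and 6832, then CRIM1 at 3760 and 3716. The intracellular members were lower: AMOTL2 at 1487 and 1593, YAP1 at 1218 and 1210, TEAD1 at 1166 and 1270, LATS2 at 773 and 830, AJUBA at 734 and 673, and WWTR1 at 364 and 431. ANKRD1 was by far the scarcest, at 84.0 and 157. With the 26 groups ranked by mean, 1 to 7 of the 25 neighbouring pairs of a member lay further apart than their summed SDs, so that most neighbours in these orders were not separated by their replicate spread.

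The members did not move as a block. On day 0 of SDS, AMOTL2, WWTR1, TEAD1, YAP1, CRIM1 and LATS2 fell while ANKRD1 rose, so that 7 of 10 were called, beside 49.6% of all genes tested, and 5 of these calls held. On day 0 of KCl, AJUBA, LATS2, TEAD1 and YAP1 rose and CCN2, CRIM1 and AMOTL2 fell, again 7 of 10, beside 56.4% of all genes, and the 4 rises held. On day 0 of DXR, AJUBA, AMOTL2 and YAP1 rose and CCN1 and TEAD1 fell, 5 of 10 beside 37.8%, and all 5 held. By direction, 6 members were lower and 1 higher on SDS day 0, beside 24.9% and 24.7% of all genes. On KCl day 0, 3 were lower and 4 higher beside 30% and 26.4%, and on DXR day 0, 2 and 3 beside 20.2% and 17.7%. The median log2 change on SDS day 0 was -0.515 for the members and -0.0122 for all genes, and a lean in direction was not tested. With 10 genes, the shares called in either direction were read as near the share of all genes.

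**Figure D1:**
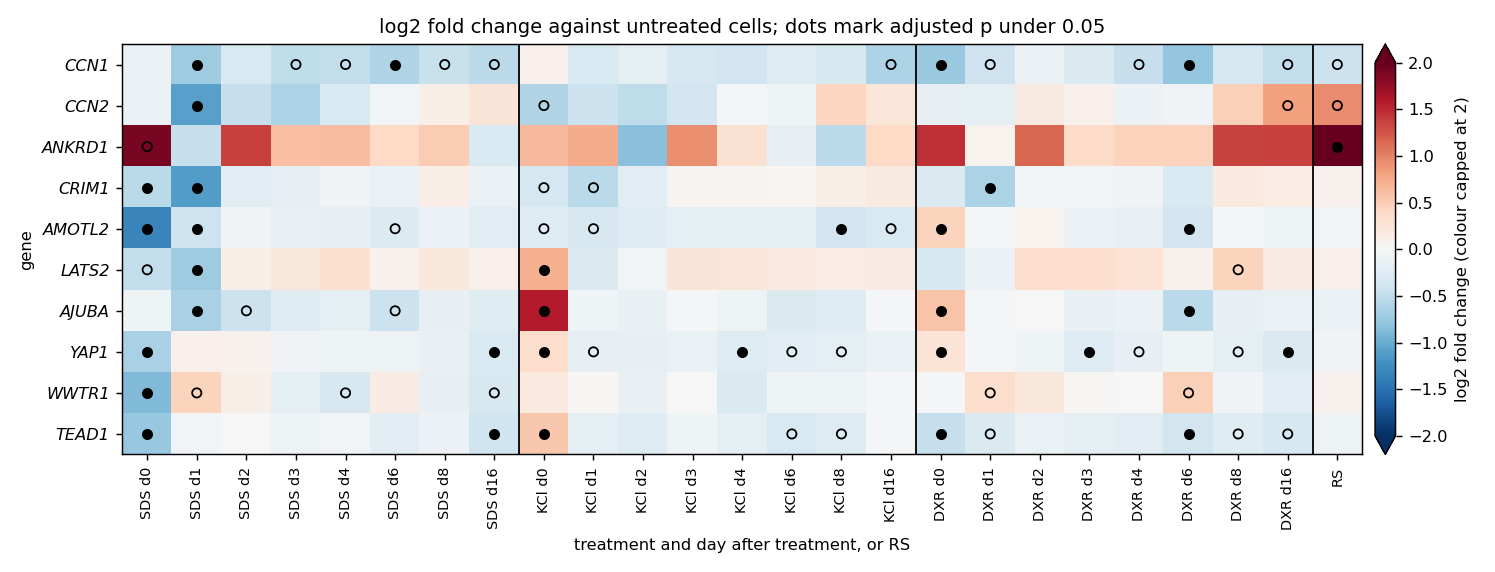
Log2 fold change of each member (rows) against untreated cells for every treatment day and for RS (columns), with colour capped at 2. Filled dots mark calls that held with any 1 library left out and open dots calls that did not; on SDS day 0 the coactivators, TEAD1, AMOTL2 and CRIM1 carry filled dots on blue, on KCl day 0 AJUBA, LATS2, YAP1 and TEAD1 carry them on red.

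One day after the wash, 7 of 10 members were called with SDS beside 24.9% of all genes, 6 lower and 1 higher, and 6 held. With KCl 3 were lower beside 13.3%, and none of these held. With DXR 1 was higher and 3 were lower beside 25.8%, and 1 held. On day 1 with SDS, 11.8% of all genes were lower and 13.1% higher. These shares were 7.6% and 5.74% with KCl, and 13.7% and 12.1% with DXR. From day 2 to day 8 fewer members were called on most days, with exceptions on DXR day 6, where 1 was higher and 4 were lower, and KCl day 8, where 3 were lower. Each inducer had 50 member comparisons on these days. With SDS 8 were called, all lower, beside 20.2% of all gene comparisons called in either direction and 8.01% to 13.2% of genes lower on single days. With KCl 6 were called, all lower, beside 18.2% in either direction and 2.16% to 19.7% lower on single days. With DXR 11 were called, 2 higher and 9 lower, beside 23.5% in either direction. On single DXR days 7.09% to 15% of genes were higher and 8.58% to 16.4% lower. At day 16, 4 members were called with SDS beside 39.2% of all genes, 2 with KCl beside 12.9% and 4 with DXR beside 42.5%. In RS 3 members were called beside 45.5%. By direction, the 4 calls with SDS and the 2 with KCl were all lower, beside 21% and 7.08% of all genes. With DXR 1 was higher and 3 lower beside 20.2% and 22.3%, and in RS 2 and 1 beside 22.4% and 23%. With 10 genes, the members' shares called in either direction in the established senescent states were read as near or below those of all genes. Neither of the 2 calls with KCl held. All 25 comparisons share the untreated libraries. The untreated libraries carry no day in the labels, so none could be matched to a treatment day. Treatment and time in culture therefore cannot be told apart in the comparisons of treated with untreated cells.

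CCN1 and CCN2 encode secreted matricellular proteins that bind integrins, and ANKRD1 encodes an ankyrin repeat protein of muscle and of wounded tissue. CCN1 (CYR61, chr1:85580761-85583962, plus strand) stood at 17037 and 16773 normalised reads in untreated cells. DXR day 0 had 11339 and 8923, both below untreated, a log2 change of -0.75 ± 0.155 (adjusted p = 0.000241). SDS day 0 had 16690 and 14600 and KCl day 0 had 19374 and 16813, and neither group was called (adjusted p = 0.568 and 0.626). At the end of treatment, then, the loss of CCN1 was seen with DXR.

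One day later CCN1 had fallen with SDS as well, to 9660 and 11005 normalised reads (log2 -0.71 ± 0.155, adjusted p = 0.000896). It was again low on day 6, at 10696 and 11568 with SDS (log2 -0.60 ± 0.155, adjusted p = 0.00402) and at 10210 and 9663 with DXR (log2 -0.77 ± 0.155, adjusted p = 0.000255). These 3 calls and that of DXR day 0 held, and the looser filter ended that of SDS day 6 (adjusted p = 0.116). In all CCN1 was called lower on 6 of 8 SDS days, 5 of 8 DXR days and 1 of 8 KCl days, and higher on none. The calls of SDS days 3, 4 and 8 and DXR days 1 and 4 did not hold: with a library left out the changes ran from -0.61 to -0.41 on the log2 scale, and any of the 4 libraries ended the call, except that SDS day 3 stood without its library b.

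In the late states every library of CCN1 lay below both untreated libraries. Day 16 had 10348 and 13362 normalised reads with SDS, 10937 and 11162 with KCl, and 10103 and 14184 with DXR, while RS had 9628 and 16387. The log2 changes were -0.52, -0.61, -0.50 and -0.43, each ± 0.155, with adjusted p of 0.00757, 0.00746, 0.00979 and 0.0237. None of these 4 calls held. Without library a the change was -0.34 in SDS (adjusted p = 0.154), -0.25 in DXR (adjusted p = 0.287) and -0.04 in RS (adjusted p = 0.832), and in KCl it was -0.60 (adjusted p = 0.06). Without untreated library a the KCl, DXR and RS calls were also lost, at -0.60, -0.49 and -0.42 (adjusted p = 0.0634, 0.0547 and 0.0982), and the RS call was lost without untreated library b, at -0.44 (adjusted p = 0.0743).

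CCN2 (CTGF, chr6:131948176-131951373, minus strand) had its lowest group mean on SDS day 1 and its highest in RS. Untreated cells had 22768 and 26798 normalised reads. On SDS day 1 the group mean was 11665, whose split between the libraries was not resolved. At the likeliest split this was a fall of 1.08 ± 0.234 on the log2 scale (adjusted p = 0.000844). The call held but was lost with the looser filter (log2 -1.04, adjusted p = 0.506). Its spread rests on that split, which favours libraries that are alike. On KCl day 0 CCN2 had 16801 and 15813, below both untreated libraries (log2 -0.60 ± 0.234, adjusted p = 0.0291). That call was lost without untreated library b (-0.48, adjusted p = 0.174), without KCl library a (-0.64, adjusted p = 0.0689) or without KCl library b (-0.56, adjusted p = 0.11). On SDS days 2 and 3 the mean was 18046 and 15950 normalised reads and on day 16 it was 29648, and none of the days from 2 to 16 was called.

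The 2 highest groups for CCN2 were RS and DXR day 16. DXR day 16 had a mean of 43853 normalised reads with an unresolved split, a log2 change of 0.81 ± 0.234 (adjusted p = 0.00531). RS had 28397 and 78730, both above untreated but 2.77-fold apart, with a log2 change of 0.94 ± 0.234 (adjusted p = 0.00142). Neither call held: without DXR library b, at the likeliest split, the change was 0.62 (adjusted p = 0.0882), without untreated library a it was 0.70 (adjusted p = 0.0666), and without RS library b it was 0.20 (adjusted p = 0.365). The size of the RS value therefore rests on a single library. CCN2 shares 195 exonic bases with an antisense transcript, and whether reads were counted by strand is not given in the sources used here.

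ANKRD1 (chr10:90912096-90921276, minus strand) was scarce, with 166 and 310 normalised reads in untreated cells, and had the widest range of any member, 16.6-fold between the highest and the lowest group mean. RS had 923 and 3221, both above every untreated value, a log2 change of 2.94 ± 0.664 (7.67-fold, adjusted p = 0.000517). That call held, although its size moved from 2.06 to 3.86 with the library left out, and it was lost when the spread was taken from the RS and untreated libraries alone (2.95, adjusted p = 0.113). SDS day 0 had 938 and 727 (log2 1.90 ± 0.7, adjusted p = 0.0243), above untreated in both libraries. That call was lost without untreated library a (1.41, adjusted p = 0.208), untreated library b (2.31, adjusted p = 0.0661) or SDS library a (1.71, adjusted p = 0.0889). DXR day 0 had 743 and 501, also above both untreated libraries, and was not called (log2 1.47 ± 0.682, adjusted p = 0.091). DXR day 16 had 347 and 1007, and was not called either (log2 1.37 ± 0.702, adjusted p = 0.117).

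Between these highs ANKRD1 lay between 100.1 and 709 normalised reads in every other library. On SDS day 1 it stood at 149 and 181, and on SDS day 8 its libraries were 201 and 709, 3.53-fold apart. ANKRD1 is abundant in striated muscle, so markers of muscle are given beside it. Their sum (ACTN2, MYH7, TNNT2 and DES) was 24.7 and 12.1 normalised reads in untreated cells, 14 and 6.91 on SDS day 0, and 19 and 25.2 in RS. DES was the only marker of the 4 abundant enough to test, and their part in ANKRD1 was not tested.

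**Figure D2:**
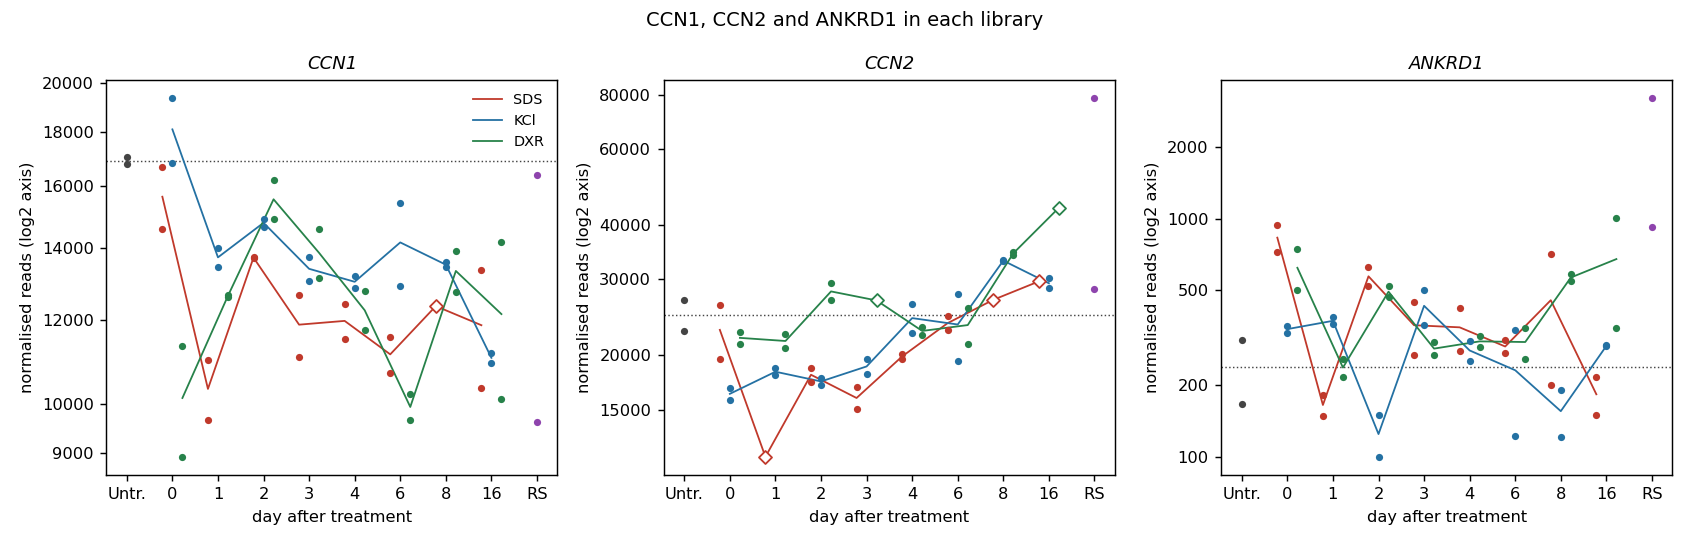
Normalised reads (log2 axis) of CCN1, CCN2 and ANKRD1 in each library (dots) by day, with lines through group means for SDS, KCl and DXR, untreated cells at left with their mean dotted, and RS at right; hollow diamonds are group means whose split between libraries was not resolved. CCN1 lies below the untreated mean at day 16 in all 3 treatments, whereas CCN2 and ANKRD1 peak in RS, where the 2 libraries are 28397 and 78730, and 923 and 3221.

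CRIM1 (chr2:36355926-36551135, plus strand) encodes a transmembrane protein that binds bone morphogenetic proteins. Its 26782 and 26466 normalised reads in untreated cells fell to 18319 and 18196 on SDS day 0 (log2 -0.54 ± 0.137, adjusted p = 0.00133) and to a mean of 12242 on SDS day 1 (log2 -1.12 ± 0.137, adjusted p = 4e-07). DXR reached 17300 and 17119 on day 1 (log2 -0.63 ± 0.137, adjusted p = 0.000797). All 3 calls held, that of SDS day 1 at the likeliest split of its reads, which was not resolved. CRIM1, like CCN2, had its lowest group mean on SDS day 1. The looser filter ended the calls of SDS day 0 (adjusted p = 0.316) and DXR day 1 (adjusted p = 0.134). KCl was called lower on days 0 and 1, at 20803 and 20926 and then 19022 and 17638 (log2 -0.35 and -0.54), but neither held: adjusted p reached 0.101 on day 0, where each of the 4 libraries ended the call with a change of -0.36 to -0.34, and 0.0852 on day 1, without untreated library a or KCl library b, with changes of -0.59 to -0.49. No later day was called. RS had 20498 and 39092, which lie on either side of untreated. Its change in RS turned with the library left out, 0.55 without library a and -0.38 without library b. CRIM1 shares 177 exonic bases with an antisense transcript.

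AMOTL2, LATS2 and AJUBA act on the pathway as well as being its targets. AMOTL2 (chr3:134355874-134375479, minus strand) is an angiomotin-family scaffold that binds YAP and keeps it from the nucleus. Untreated cells had 8896 and 9534 normalised reads. SDS day 0 had 3652 and 3746 (log2 -1.32 ± 0.0981, 0.402-fold, adjusted p = 1.11e-12), well under every other library of this gene. DXR day 0 went the other way, to 11773 and 13323 (log2 0.44 ± 0.0962, adjusted p = 0.000422). AMOTL2 was thus at its lowest and at its highest among the 26 groups on the same day of different treatments, with means of 3699 and 12550.

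After SDS, AMOTL2 had come back to 6715 and 7149 by day 1, still below untreated (log2 -0.41 ± 0.0968, adjusted p = 0.00194), and to 8679 and 8914 by day 2, when it was not called. KCl day 8, at 7062 and 7024, and DXR day 6, at 7215 and 6944, were also lower (log2 -0.39 and -0.38, adjusted p = 0.0019 and 0.00281). These calls and those of SDS and DXR day 0 held, and the looser filter ended those of SDS day 1 and DXR day 6 (adjusted p = 0.0586 and 0.0885). Another 4 calls of AMOTL2, on SDS day 6 and KCl days 0, 1 and 16, with changes from -0.32 to -0.25, did not hold. Any of the 4 libraries ended the calls of SDS day 6 and KCl days 1 and 16, and library b of either group that of KCl day 0, the changes then running from -0.37 to -0.19. The gene shares 187 exonic bases with the ribosomal pseudogene RPL39P5 on the same strand.

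LATS2 (chr13:20973032-21061547, minus strand), a Hippo kinase that phosphorylates YAP and TAZ, rose on KCl day 0 from 4314 and 4629 normalised reads to 7207 and 7344 (log2 0.70 ± 0.135, adjusted p = 4.49e-05). On SDS day 0 it was at 3393 and 2994 (log2 -0.49 ± 0.138, adjusted p = 0.00387), and on SDS day 1 at 2649 and 2814 (log2 -0.71 ± 0.138, adjusted p = 0.000256). The KCl and the SDS day 1 calls held, and that of SDS day 0 was lost without SDS library b (-0.40, adjusted p = 0.0575). DXR day 8 was called higher, at 5850 and 6377 (log2 0.45 ± 0.135, adjusted p = 0.0102), and lost without untreated library a (0.40, adjusted p = 0.0952) or DXR library b (0.39, adjusted p = 0.0888). LATS2 was not called at day 16 or in RS, where its libraries were 3834 and 6019.

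AJUBA (chr14:22971174-22982642, minus strand) is a LIM-domain protein of cell junctions that inhibits the LATS kinases. KCl day 0 had 13140 and 12161 normalised reads against 4386 and 4023 in untreated cells, a 3.01-fold rise (log2 1.59 ± 0.134, adjusted p = 1.71e-11) and the clearest rise of any member at the end of a treatment. By KCl day 1 it was at 3934 and 3970, below both untreated libraries by less than the test could call (log2 -0.09, adjusted p = 0.733). DXR day 0 rose to 6230 and 6279 (log2 0.57 ± 0.135, adjusted p = 0.000994), whereas SDS day 0 had 4182 and 3772 and was not called (log2 -0.08, adjusted p = 0.651).

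Lower levels of AJUBA followed with SDS and DXR. SDS day 1 had 2803 and 2560 (log2 -0.65 ± 0.138, adjusted p = 0.000752) and DXR day 6 had 2790 and 2977 (log2 -0.55 ± 0.137, adjusted p = 0.00255), and both calls held, as did the rises of day 0, while the looser filter ended that of DXR day 6 (adjusted p = 0.0743). SDS days 2 and 6 were called lower (log2 -0.42 and -0.44) and did not hold: on day 2 each of the 4 libraries ended the call (-0.48 to -0.36), and on day 6 untreated library a or SDS library b did (-0.55 to -0.33). In RS the libraries were 2846 and 5184, on either side of untreated, with a change of 0.30 without library a and -0.56 without library b. AJUBA shares 50 exonic bases with AL132780.3, annotated as protein-coding on the same strand.

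**Figure D3:**
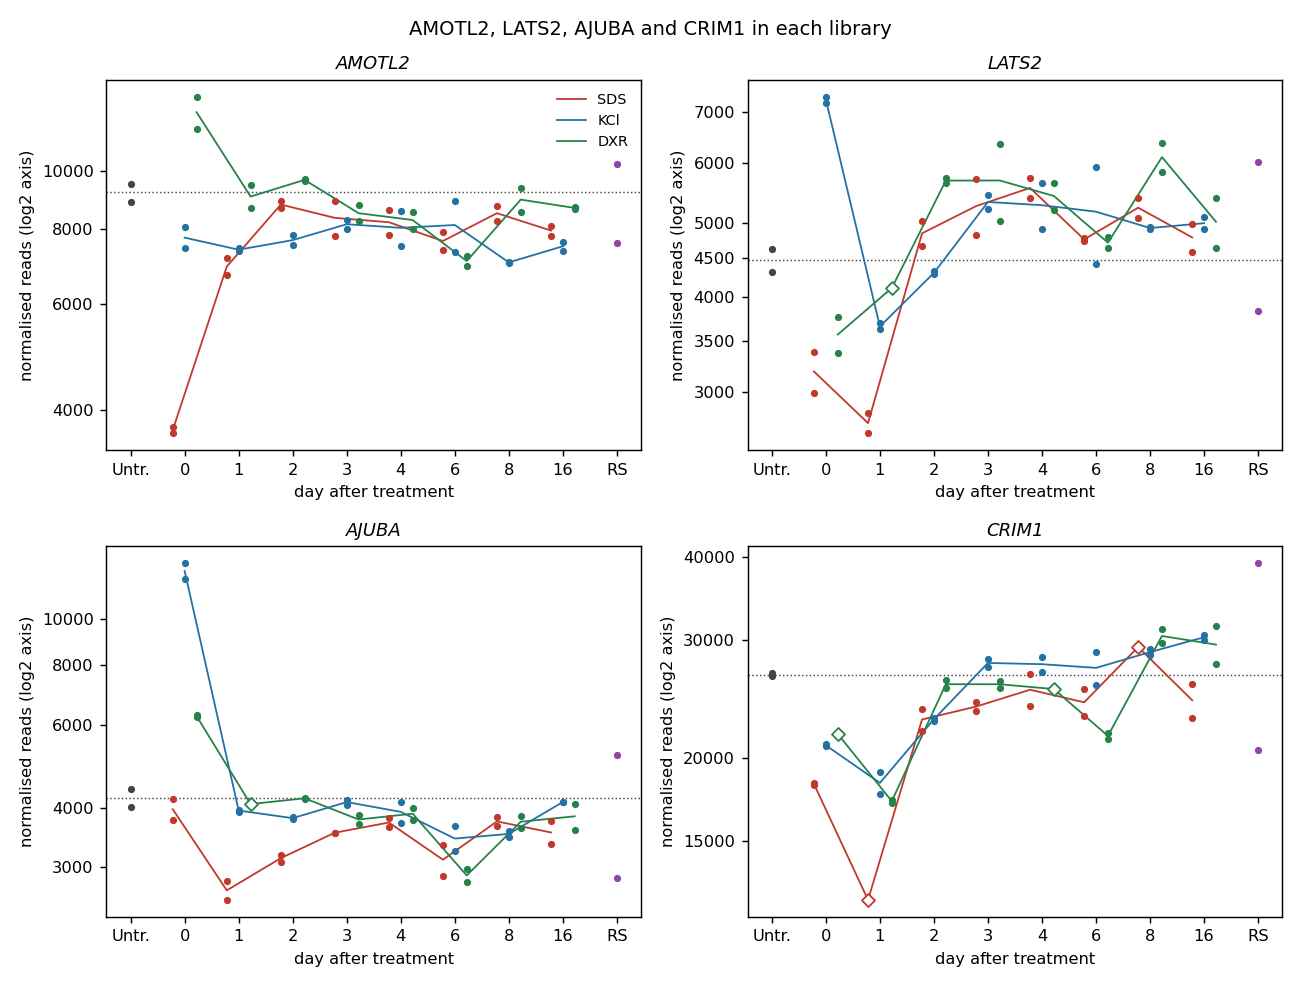
Normalised reads (log2 axis) of AMOTL2, LATS2, AJUBA and CRIM1 in each library by day, drawn as for CCN1, CCN2 and ANKRD1. AMOTL2 is at 3652 and 3746 on SDS day 0, AJUBA and LATS2 peak on KCl day 0, and all but AMOTL2 have their lowest point on SDS day 1.

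YAP1 (chr11:102110461-102233423, plus strand) had 7670 and 7620 normalised reads in untreated cells and the smallest standard error of the members. It fell on SDS day 0 to 4856 and 4908 (log2 -0.65 ± 0.0563, adjusted p = 3.19e-11). It rose on day 0 of KCl, to 9594 and 9942 (log2 0.35 ± 0.0557, adjusted p = 2.65e-06), and of DXR, to 9480 and 9042 (log2 0.28 ± 0.0557, adjusted p = 0.000181). All 3 calls held, so the end of treatment split the inducers, with the membrane-damaging one alone on the lower side.

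Later, small falls of YAP1 were measured. SDS day 16 had 6444 and 5997 (log2 -0.30 ± 0.0559, adjusted p = 7.51e-05) and DXR day 16 had 6607 and 5909 (log2 -0.29 ± 0.0559, adjusted p = 8.61e-05), while KCl day 16, at 6963 and 6988, was not called (log2 -0.13, adjusted p = 0.124). KCl day 4 and DXR day 3 were lower as well (log2 -0.26 and -0.25), and these 4 calls held, while that of SDS day 16 was lost with the spread of those 4 libraries alone (adjusted p = 0.0701). The calls of KCl days 1, 6 and 8 and of DXR days 4 and 8, with changes from -0.22 to -0.16, did not. KCl day 6 was lost without its library a, DXR day 8 without its library b, KCl day 8 without untreated library a or its own b, DXR day 4 without either untreated library or its own a, and KCl day 1 without any of the 4, the changes then running from -0.29 to -0.11. RS had 7337 and 7186 (log2 -0.07 ± 0.0558, adjusted p = 0.291), with no call. YAP1 shares 628 exonic bases with an antisense transcript.

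WWTR1 (chr3:149517235-149736714, minus strand), the gene of TAZ, had 3059 and 3622 normalised reads in untreated cells. SDS day 0 had 1686 and 1936 (log2 -0.88 ± 0.116, 0.543-fold, adjusted p = 1.44e-07), below every other library, and this call held. Day 1 was higher: SDS had 4136 and 4984 (log2 0.45 ± 0.11, adjusted p = 0.00284) and DXR 4046 and 4412 (log2 0.35 ± 0.11, adjusted p = 0.0183), both above the untreated pair. DXR day 6 was higher too, at 4667 and 4542 (log2 0.47 ± 0.11, adjusted p = 0.00121).

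None of these 3 rises of WWTR1 held. Each was lost without untreated library a, with a largest adjusted p of 0.109, 0.296 and 0.0651 over the libraries left out, and the day 1 calls also without library b of SDS or of DXR, the changes running from 0.22 to 0.59. SDS days 4 and 16 were called lower (log2 -0.33 and -0.32) and were lost without untreated library b, and without SDS library a on day 4 or b on day 16 (-0.45 to -0.20). KCl gave no call on any day, with log2 changes from -0.29 to 0.20. WWTR1 shares 795 exonic bases with its antisense neighbour WWTR1-AS1.

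TEAD1 (chr11:12674591-12944483, plus strand), the most abundant TEAD gene in these cells per kilobase, had 11983 and 13055 normalised reads in untreated cells. SDS day 0 had 7016 and 7813 (log2 -0.76 ± 0.0911, adjusted p = 2.64e-08) and DXR day 0 had 9565 and 8651 (log2 -0.46 ± 0.0907, adjusted p = 0.000139). KCl day 0 had 18814 and 17617 (log2 0.54 ± 0.0906, adjusted p = 6.53e-06), above every other library. All 3 calls held. TEAD1 and YAP1 moved together with SDS and with KCl, whereas with DXR YAP1 rose and TEAD1 fell.

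Like YAP1, TEAD1 was lower at day 16 with SDS, at 9926 and 9135 (log2 -0.39 ± 0.0908, adjusted p = 0.000851), and this held. DXR day 16, at 9744 and 10233 (log2 -0.32 ± 0.0908, adjusted p = 0.00433), did not without untreated library b (adjusted p = 0.0691, -0.26). DXR day 6 was lower and held (log2 -0.36, adjusted p = 0.00239). DXR days 1 and 8 and KCl days 6 and 8 were called lower, with changes from -0.31 to -0.24, and did not hold. All 4 were lost without untreated library b, DXR day 8 also without untreated library a, and each without 1 or both of its own libraries, the changes then running from -0.41 to -0.18. RS, at 10596 and 12810, was not called.

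**Figure D4:**
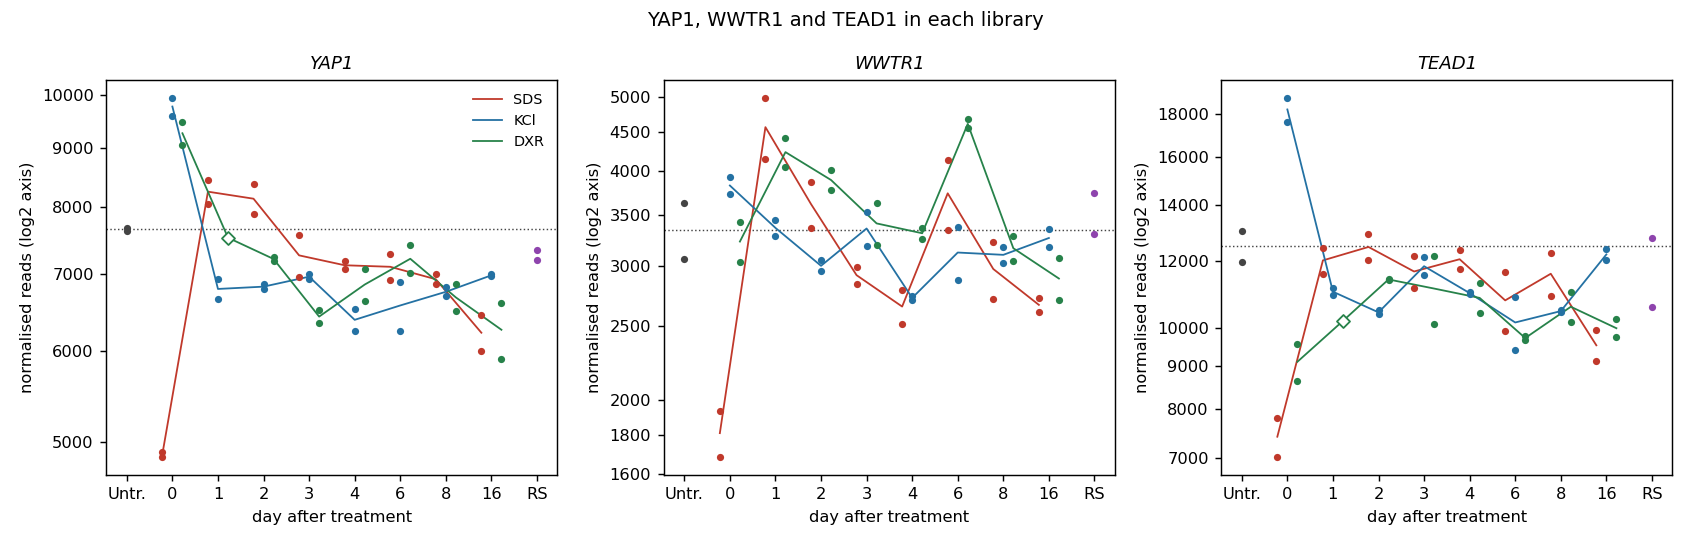
Normalised reads (log2 axis) of YAP1, WWTR1 and TEAD1 in each library by day, drawn as for the targets. On SDS day 0 all 3 genes are at their lowest, on KCl day 0 YAP1 and TEAD1 are at their highest, and by day 16 YAP1 lies below its untreated mean in each treatment.

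Contrasts between inducers on the same day do not use the means of the untreated libraries, which enter the shared spread alone. On day 0, AMOTL2 differed in every pair, with 12548 normalised reads in DXR, 7746 in KCl and 3699 in SDS (SDS against DXR 0.295-fold, log2 -1.76 ± 0.0976, adjusted p = 5.75e-16). AJUBA, LATS2 and TEAD1 were higher in KCl than in DXR (2.02-, 2.04- and 2.00-fold) and than in SDS (SDS 0.314-, 0.438- and 0.407-fold of KCl). YAP1 was lower in SDS than in KCl (0.50-fold) and in DXR (0.527-fold), as was WWTR1 (0.472- and 0.560-fold), while the ratio of KCl to DXR for YAP1 was 1.06 with a 95% interval of 0.978 to 1.14 and no call. CCN1 was higher in SDS and in KCl than in DXR (1.55- and 1.79-fold). These calls, with largest adjusted p of 0.00079, held.

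In all, 6 of 10 members differed between SDS and DXR on day 0 beside 56.9% of all genes, 7 between SDS and KCl beside 63.8%, and 6 between KCl and DXR beside 65.1%, so that the members' counts in either direction were near the share of all genes. By direction, 5 were lower and 1 higher in SDS than in DXR, beside 27.5% and 29.5%. Against KCl, 6 were lower and 1 higher in SDS, beside 30.6% and 33.2%. In KCl 1 was lower and 5 were higher than in DXR, beside 32.9% and 32.2%. The calls that did not hold were ANKRD1 in SDS against KCl (log2 1.26, 1.07 to 1.44 with a library left out, lost without SDS library a or either KCl library), TEAD1 in SDS against DXR (-0.30, -0.37 to -0.22, lost without library a of either) and WWTR1 in KCl against DXR (0.25, 0.16 to 0.33, lost without either KCl library or DXR library b).

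One day after the wash, CCN2, CRIM1, LATS2, AJUBA and AMOTL2 were lower in SDS than in DXR (0.540-, 0.711-, 0.663-, 0.659- and 0.765-fold), and these 5 calls held, but the looser filter ended those of CCN2 and CRIM1 (adjusted p = 0.642 and 0.402). TEAD1 was called higher (1.18-fold), which no left-out library spared (log2 0.19 to 0.29). That makes 6 of 10 beside 34.8% of all genes. Between SDS and KCl 6 were called beside 18.7%, of which CRIM1 lower (0.668-fold) and YAP1 higher (1.21-fold) held, CRIM1 being lost with the looser filter (adjusted p = 0.401). AJUBA (0.680-fold) was lost without SDS library b (log2 -0.50), WWTR1 (1.35-fold) without SDS library b or KCl library a (0.30 to 0.57 with a library left out), and CCN2 and LATS2 (0.635- and 0.745-fold) without any of the 4 (-0.73 to -0.38). Between KCl and DXR 3 were called beside 26.4%, AMOTL2, YAP1 and WWTR1, all lower in KCl, and none held (-0.39 to -0.12 with a library left out, lost without either KCl library or DXR library b).

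At day 16 the inducers were closer. Between SDS and DXR limma called 0 of 10 members beside 5.23% of all genes. At an unadjusted p under 0.05 it passed CCN2 (29648 against 43853, 0.680-fold, 95% interval 0.495 to 0.933) and ANKRD1 (183 against 677, 0.311-fold, 0.133 to 0.728), both lower in SDS. On DXR day 16 the split of CCN2 was not resolved and the libraries of ANKRD1 were 2.9-fold apart. The share of all genes at that unadjusted threshold was not computed, so nothing is read from CCN2 and ANKRD1 here. For the other 8 members the interval of the ratio lay between 0.686 and 1.21. SDS against KCl gave 3 calls beside 23.3%, YAP1, WWTR1 and TEAD1, all lower in SDS (0.891-, 0.818- and 0.779-fold). KCl against DXR gave 2 beside 28.0%, YAP1 and TEAD1, both higher in KCl (1.12- and 1.23-fold). None of these 5 held: changes ran from -0.42 to -0.11 and from 0.08 to 0.33 on the log2 scale with a library left out. SDS library b ended all 3 calls of SDS against KCl, alone that of TEAD1, and either KCl library ended both calls of KCl against DXR.

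The first day after the wash was also compared with day 0 within each inducer. With SDS the coactivators, TEAD1 and AMOTL2 rose while the other targets called fell. WWTR1 rose 2.51-fold, AMOTL2 1.87-fold, YAP1 1.69-fold and TEAD1 1.62-fold, with adjusted p of 9.1e-08 or less. CCN1, CCN2, AJUBA and CRIM1 fell to 0.660-, 0.514-, 0.676- and 0.671-fold, with adjusted p of 0.00152 or less. These 8 calls held, those of CCN2 and CRIM1 being lost with the looser filter (adjusted p = 0.698 and 0.339). ANKRD1, called at 0.194-fold, was lost without library a of day 1 (log2 -2.19, adjusted p = 0.0671). In all 9 members were called beside 53.5% of all genes.

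KCl and DXR mainly gave falls over the same day. With KCl, AJUBA fell to 0.313-fold, LATS2 to 0.503-fold, TEAD1 to 0.607-fold and YAP1 to 0.695-fold, and these held. CCN1 was called lower (log2 -0.40) and was lost without KCl day 0 library a or either day 1 library (-0.50 to -0.29). These were 5 of 10 members beside 61.5% of all genes. With DXR, AMOTL2, AJUBA and YAP1 fell to 0.724-, 0.652- and 0.812-fold and held, and WWTR1 was called higher (log2 0.39) and lost without library b of either day (0.30 to 0.48), 4 of 10 beside 24.9%.

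Other genes of the pathway were read from 3 lists. Their calls are those of the main fit, and whether they held with a library left out is not given here. This limit weighs most in RS, where the 2 libraries stood furthest apart. Of 16 further genes of the published YAP and TEAD target signature, 2 were called higher and 10 lower on SDS day 0 (median log2 -0.47), 4 and 7 on KCl day 0 (-0.32), 1 and 5 on DXR day 0 (-0.18) and 5 and 7 in RS (-0.10). Of all genes tested, 24.7% were called higher and 24.9% lower on SDS day 0, and 26.4% and 30% on KCl day 0. These shares were 17.7% and 20.2% on DXR day 0, and 22.4% and 23% in RS. On SDS day 0, GADD45A, a stress gene that p53 also induces, rose from 3194 to 9966 normalised reads (log2 1.64 ± 0.108), the kinase NUAK2 fell (log2 -2.01 ± 0.353) and F3, tissue factor, fell (log2 -1.52 ± 0.232). On KCl day 0, NT5E, the ectonucleotidase CD73, fell from 28706 to 5344 (log2 -2.43 ± 0.134), with IGFBP3 and NUAK2 (log2 -2.04 and -1.56). On DXR day 0, GADD45A rose (log2 0.84) while the RNA-binding gene RBMS3 and the membrane-repair ferlin MYOF fell (log2 -0.82 and -0.37).

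In the late states the same list went both ways. At day 16, 2 were higher and 7 lower with SDS (median -0.33), 1 and 4 with KCl (0.03), and 4 and 7 with DXR (-0.30). Of all genes tested, 18.3% were higher and 21% lower with SDS, 5.81% and 7.08% with KCl, and 20.2% and 22.3% with DXR. TGFB2, a transforming growth factor, rose from 1006 to 3134 normalised reads with DXR (log2 1.62 ± 0.361) and to 4057 in RS (log2 1.70 ± 0.358). CCDC80, a matrix protein, rose with SDS, DXR and in RS (log2 0.83, 1.16 and 1.11), and IGFBP3, which binds insulin-like growth factors, in RS (log2 1.19). The receptor tyrosine kinase AXL fell at day 16 with SDS, KCl and DXR (log2 -0.76, -0.35 and -1.06), NT5E with SDS (-0.73), and FJX1 and RBMS3 with KCl (-0.34 and -0.38).

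Of 19 Hippo kinases, scaffolds and inhibitors, 1 was higher and 14 were lower on SDS day 0 (median log2 -0.59), 8 and 6 on KCl day 0 (0.16), and 2 and 8 on DXR day 0 (-0.13). The angiomotin AMOT, a relative of AMOTL2, fell on SDS day 0 (log2 -1.95 ± 0.192), with the scaffold WWC1 (-1.36) and WTIP, a relative of AJUBA (-1.0). WTIP rose on KCl day 0 (0.81 ± 0.115), as AJUBA did, while NF2, the upstream scaffold merlin, fell there (-1.16 ± 0.105) with WWC1 (-1.18). On DXR day 0, WWC1, WWC2 and the AJUBA relative LIMD1 fell (-0.89, -0.69 and -0.66). At day 16, 3 were higher and 9 lower with SDS (-0.24), 2 and 8 with DXR (-0.13), and 3 and 7 in RS (-0.14). With KCl, 0 of 19 were called by limma, and 8 had an unadjusted p under 0.05. The share of all genes at that unadjusted threshold was not computed, so nothing is read from the 8. AMOT was lower with SDS, with DXR and in RS (-0.57, -0.83 and -0.97), the Hippo cofactor MOB1B lower and AMOTL1 higher with SDS (-0.68 and 0.49), MAP4K4 and WTIP lower with DXR (-0.45 and -0.52), and LIMD1 and WTIP lower in RS (-0.70 and -0.60).

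Of the other TEAD genes and their VGLL cofactors, 4 of 6 were abundant enough to test, and VGLL1 and VGLL2 had at most 2 reads in any library. All 4 fell on SDS day 0 (median log2 -1.06), 3 rose on KCl day 0 (0.53) and 2 fell on DXR day 0 (-0.36). TEAD2 went from 994 normalised reads to 357 with SDS, 2170 with KCl and 581 with DXR (log2 -1.47 ± 0.146, 1.13 ± 0.11 and -0.77 ± 0.118), and TEAD4 likewise (-1.19, 0.55 and -0.59). TEAD3 rose with KCl (0.50), and VGLL3 fell with SDS on day 0 and day 16 (-0.93 and -0.55). TEAD4 alone was called lower in all late states, by 0.87 with SDS, 0.57 with KCl, 0.96 with DXR and 1.02 in RS on the log2 scale. These lists are described by their counts beside the shares of all genes given above for each comparison, and nothing is read from them as particular to the pathway.

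**Figure D5:**
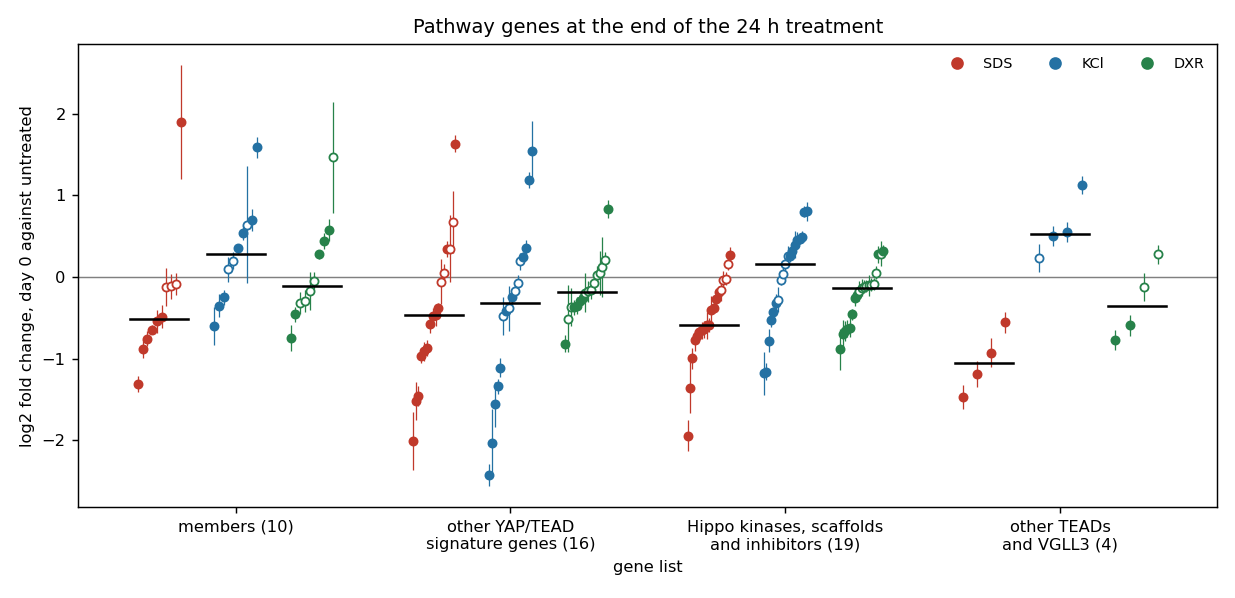
Log2 fold change on day 0 against untreated (points, ± SE) of the 10 members and the 3 lists, for SDS, KCl and DXR. Filled points were called, black bars are medians; the 4 tested TEAD and VGLL genes lie below 0 with SDS and above 0 with KCl.

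Markers of other cell types and of fibroblasts also moved with some groups. The 6 measured fibroblast markers summed to 205900 and 185900 normalised reads in untreated cells and to 91890 and 93760 on SDS day 0, where all 6 were called lower, beside the falls of YAP1, WWTR1, TEAD1 and AMOTL2. On SDS day 1, where CCN2, CRIM1, LATS2 and AJUBA were at their lowest, the sums were 128100 and 127300 and 5 of 6 were called lower (median log2 -1.32), and on day 2, 5 were lower and 1 higher (median -1.03). In RS and at day 16 of SDS and of DXR, 4 of these markers were called higher and 1 lower. On KCl day 8, 5 were higher and 1 lower, and on KCl day 16, 2 were higher. The sums were 211200 and 312900 in RS, and 216400 and 234100 on DXR day 16, the groups with the highest CCN2 means. They were 254400 and 260400 on KCl day 8. On KCl day 0 the endothelial markers PECAM1, VWF and CDH5 summed to 201 and 264 against 44.5 and 54.4 in untreated cells. The epithelial markers summed to 29.4 and 29.1 against 16.5 and 18.1, and the muscle markers to 68.5 and 85.1 against 24.7 and 12.1. These sums stood beside the rises of AJUBA, LATS2, YAP1 and TEAD1. Of the markers abundant enough to test, 1 of 2 endothelial ones and the muscle marker DES (log2 1.85) were called higher. The epithelial marker EPCAM was not called (log2 -0.20). With DXR the blood marker PTPRC ran from 10.5 to 38.5 normalised reads over the 16 libraries, against 0 in both untreated libraries and at most 5.53 in any other library. The endothelial sum was also higher on DXR day 0, at 120.5 and 81.2, and day 1, at 115.6 and 113.5. It stood beside the DXR changes of CCN1, AJUBA, AMOTL2, YAP1, TEAD1 and CRIM1. On each of these days 1 of 2 tested endothelial markers was called higher. The part of these markers in the members' values was not tested.

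Across the means of the 26 groups, genes with the most similar course were sought among 11122 genes with a mean of at least 100 reads. CCN2 ran closest to GPC4, a glypican (Pearson r = 0.91), EFEMP1, SLC41A1, ITIH5 and KCND3 (0.91 to 0.89). ANKRD1 ran closest to COBLL1 (r = 0.80), then SYT16, ATP6V1G1, ISCA1 and IRS2 (0.71 to 0.68), and CCN1 to ERBIN (r = 0.77), SMARCA5, ZCCHC10, RGPD8 and DGCR8 (0.76 to 0.74). GPC4, for example, had 440 and 653 normalised reads in untreated cells and 4145 and 7141 in RS. These correlations are over group means that share their libraries and scaling, and RGPD8 has near-identical copies between which reads could be split.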

How the data were processed

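The mRNA of 52 WI-38 libraries was sequenced. The submitters' notes name Trim Galore, HISAT2, HTSeq, featureCounts, DESeq2 and the builds GRCh38 and hg38, with no roles. The authors deposited 25 distinct tables, in 52 files. Per the file headers each holds a signal, the mean of normalised read counts over the 4 libraries compared, and the authors' own fold changes and p-values, which were not used.

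Reads per library were recovered from that signal. The digits of a mean were matched to whole reads with lattice reduction (mpmath 1.4.1), the untreated pair being common to all tables. For the untreated pair this solved 99.98% of 46275 genes above 0 and left 9 out. Of the treated pairs, DXR day 1 had 1 solution for 91.927% of genes, and every other group for 98.72% or more. On DXR day 1 the split of 2460 genes was unclear. Another 30 genes were dropped because no pair of reads fitted. The recovery was tested on simulated tables. As the deposited unit is a mean and not counts, limma 3.58.1 in R 4.3.3 with voom weights was used, with median-ratio scaling, all 52 libraries in 26 groups, a mean of at least 10 reads, and Benjamini-Hochberg adjustment within each contrast, called under 0.05. The untreated pair rests on being shared by all tables, and labels could not be tied to libraries a and b. On simulated reads for SDS day 0 against untreated with 200 of 15759 genes changed, limma recovered 92.5% of changes of 2 on the log2 scale, 49% of 1 and 0 of 0.5. The simulation used an assumed spread and few changed genes. In the data 7823 genes were called in that comparison, which makes the adjusted threshold less strict. The simulated rates are therefore not those of the data, though small changes can be missed.

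Named list genes were the 3 of each list with the largest absolute change among those called, on days 0 and 16 and in RS. Members and lists were chosen with earlier results of these data known. Alternatives were other scalings, filters, weights and samples. Promoter sequences are from RefSeq (GRCh38.p14) and gene positions from GENCODE 29 (GRCh38). One blood marker of the fixed list is not reported here.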

Additional observations from a re-analysis of the deposited data

Results flagged for a closer look

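The inducers were compared directly on the same day, and the number of the 10 members whose levels differed between them by limma (adjusted p under 0.05) is given here. On day 0, 6 differed between SDS and DXR, 7 between SDS and KCl, and 6 between KCl and DXR, beside 56.9%, 63.8% and 65.1% of all genes, and 5, 6 and 5 of these calls held with any 1 library left out. On day 1 the counts were 6, 6 and 3 in the same order, beside 34.8%, 18.7% and 26.4%, of which 5, 2 and 0 held. On day 16, 3 differed between SDS and KCl and 2 between KCl and DXR, beside 23.3% and 28.0%, and none of these 5 held. AMOTL2 on day 0 differed between SDS and DXR, with 3699 normalised reads in SDS and 12548 in DXR.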

How the results depend on the processing

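Of 128 called member values, 122 were kept with scaling by library totals, 118 with the upper quartile, 128 with a mean of at least 100 reads, 128 with a trend in place of voom weights and 112 with the 2 groups of each contrast alone. Of the alternatives chosen after seeing the data, other splits of the reads kept 117 (the 11 lost were calls that had not held), and leaving out DXR day 1 kept 47 of 47. With all genes with a read in 2 libraries, 76 were kept and SDS days gave 11 calls, KCl days 8 and DXR days 13, in place of 26, 18 and 24; the cause was not tested. With the 2 groups alone, KCl days gave 29 and RS 0 in place of 3, where fewer libraries set the spread (ANKRD1 2.95, adjusted p = 0.113 by limma). With 1 library left out, where the lone library is assumed to vary like the others, calls ranged from 18 to 26 for SDS, 11 to 19 for KCl, 15 to 26 for DXR, 2 to 5 for RS, 32 to 42 between inducers and 17 to 19 for day 1 against day 0. In RS the changes of AJUBA and CRIM1, neither called, took both signs: AJUBA ran from -0.56 to 0.30 and CRIM1 from -0.38 to 0.55. Over all genes, RS gave 7163 calls, 2221 with the 2 groups alone and 19249 with all genes with a read in 2 libraries, and the lowest with a library left out were 20986 of 33808 for SDS, 17355 of 27343 for KCl and 22698 of 35242 for DXR. ANKRD1 had the fewest reads per kilobase of the members in untreated cells and the largest standard errors. No paired analysis was possible because replicate numbers could not be tied to libraries.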
